A study of Mus musculus with 12 samples.

Results

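The main effect of Ing1 loss is the difference between 6 arrays from mice lacking Ing1 and 6 arrays from mice carrying it, with Gadd45a status as a covariate. All 12 arrays of the series entered it. The arrays lacking Ing1 were 3 DKO arrays, from Gadd45a-/-;Ing1-/- mice, and 3 Ing1-KO arrays. The arrays carrying Ing1 were 3 Gadd45a-KO arrays and 3 WT arrays. Gadd45a was thus lost on 3 of the 6 arrays of each side. All animals were male, on the C57BL/6N strain, between 59 and 67 days old, and the tissue was gonadal white fat. Each array held RNA pooled from 3 of the 9 animals of a genotype, so the spread between arrays is a spread between pools. The labels give the 2 mutant lines as crossed with each other and name no Cre driver or cell type for either. Which animals shared a litter was not given.

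Ing1 encodes a member of the inhibitor of growth family, chromatin proteins whose plant homeodomain finger reads trimethylated lysine 4 of histone H3. ING1 is known as a subunit of the Sin3 histone deacetylase complex and as a partner of p53. It has also been described as guiding GADD45A to gene promoters for DNA demethylation. White adipocytes store triglyceride and release fatty acids, under the control of PPAR and C/EBP transcription factors, and share the tissue with macrophages, lymphocytes, endothelial cells and progenitors.

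Signals were normalized log2 intensities of 1-colour arrays. The share of spots well above background ran from 58.5% to 67.4% on the arrays lacking Ing1 and from 58.2% to 68.1% on the arrays carrying it. All 24 white adipocyte markers looked for were above background on all 12 arrays. Skeletal muscle transcripts were high on 3 arrays, 2 of them lacking Ing1. Their mean over 22 genes, as a log2 deviation from the mean of all arrays, was 1.74 on DKO replicate 1, 2.61 on Ing1-KO replicate 1 and 0.84 on Gadd45a-KO replicate 1, and between -0.75 and -0.32 on the other 9 arrays. Levels of RNA in whole fat do not tell fewer cells of a type from less RNA per cell.

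Ing1 itself was measured by 3 probes. The brightest read 9.13, 9.23 and 9.60 on the DKO arrays and 9.28, 9.54 and 9.37 on the Ing1-KO arrays, against 12.50, 12.37 and 12.78 on the Gadd45a-KO arrays and 12.45, 12.43 and 12.49 on the WT arrays. All 6 arrays lacking Ing1 thus lay far below all 6 carrying it. The difference was -3.14 ± 0.10 on the log2 scale (SE, n = 6 against 6), an 8.84-fold lower signal, with an adjusted p of 4.93e-09 by limma's moderated test. The other Ing1 probes differed by -6.75 ± 0.25 and by -5.96 ± 0.17. The last of these was not well above background on any array lacking Ing1, which makes it at least 19.0-fold lower there. The single Gadd45a probe in the fit averaged 10.61 ± 0.01 in DKO and 9.20 ± 0.12 in Ing1-KO, against 10.17 ± 0.11 in Gadd45a-KO and 9.51 ± 0.25 in WT (SD, n = 3 each). It was higher on the arrays labelled as lacking Gadd45a. Whether the probe lies in the deleted part of the gene was not given, so it does not check those labels. The main effect of Ing1 loss on this probe was 0.07 ± 0.14 (adjusted p = 0.779).

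Of 31453 genes and unnamed probes tested, 4356 passed an adjusted p of 0.05 in the main effect, a share of 13.8%. Of these, 1891 were higher without Ing1 (6.01% of those tested) and 2465 were lower (7.84%). Among the 15954 named genes tested, 1492 rose and 1277 fell. In either direction 17.4% of named genes passed, against 10.2% of unnamed probes, and the gene lists below hold named genes only. The median change of all genes was -0.04 on the log2 scale, and the median size among the 4356 was 0.55. Only 371 of them differed at least 2-fold, 87 upward and 284 downward. The share past the threshold was 5.46% among the 7864 dimmest and 21.6% among the 7863 brightest. The count rested on the set of arrays. It was 1663 without Gadd45a-KO replicate 3, 1855 without Gadd45a-KO replicate 2, 1910 without DKO replicate 1, 1965 without Ing1-KO replicate 1, 2086 without Gadd45a-KO replicate 1, 2451 without DKO replicate 2, 2539 without WT replicate 3 and 7854 without WT replicate 2. In all, 1377 genes and probes, 652 higher and 725 lower, passed in each of the 12 fits that left out 1 array. Without the 3 arrays highest in muscle transcripts, 5 passed: Ing1, Spaca1, Nampt, Cstad and an unnamed probe. That fit had 9 arrays and 6 residual degrees of freedom. In it none of the 4356 changed sign, and their median change along the original direction was 0.51. Both are in part fixed by selection on all 12 arrays, 9 of which the fit reuses. Their median SE was 0.16, against 0.13 with all arrays. A share of 20.3% of all genes had an unadjusted p under 0.05 by limma in that fit, against 32.4% with all arrays. Why the count fell was not tested.

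The 6 and 6 arrays also separated without reference to any threshold. On the first principal component, which held 33.8% of the variance, the arrays lacking Ing1 ran from -3.19 to 87.7 and those carrying it from -62.9 to -5.60. The 2 sets did not overlap (exact permutation test on the mean, two-sided p = 0.00216, the smallest that 6 against 6 arrays allow). The permutation took no account of slide or Gadd45a status. The nearest arrays of the 2 sets, Ing1-KO replicate 2 at -3.19 and WT replicate 2 at -5.60, lay close together on this axis. For 2606 genes and probes, 8.29% of those tested, the 6 values lacking Ing1 did not overlap the 6 values carrying it, and 2298 of these were past the threshold.

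The largest named rises were those of Slitrk4 and Spaca1. Slitrk4, an adhesion protein best known from synapses, ran from 7.15 to 7.92 with a median of 7.35 on the arrays lacking Ing1, against 5.43 to 6.13 with a median of 5.81 on those carrying it. It rose by 1.71 ± 0.17 on the log2 scale, or 3.26-fold (adjusted p = 0.000808), and its other probe gave 1.21 ± 0.21. Spaca1, a membrane protein of the sperm acrosome, ran from 9.13 to 9.52 with a median of 9.38 without Ing1, against 7.39 to 8.34 with a median of 7.65 with it. Its rise of 1.65 ± 0.14 had the smallest adjusted p of the 15 named rises, 0.000496, and a further Spaca1 probe gave 1.80 ± 0.12. Of 21 epididymis and testis genes listed, Spaca1 among them, 7 were tested and 4 were above background on every array. Spaca1 alone passed, and the median of the 7 was -0.05. The protamines Prm1 and Prm2, which pack sperm DNA, were at -0.15 and -0.33. Most of the list did not enter the fit, and whether these tissues were carried over into the fat was not tested. Acot4, a peroxisomal thioesterase that releases free acids from acyl-CoA, ran from 7.86 to 8.45 with a median of 8.33 without Ing1, against 6.68 to 7.14 with a median of 6.83. It rose 2.56-fold (1.36 ± 0.13, adjusted p = 0.000743). For these 3 genes the lowest array lacking Ing1 lay above the highest array carrying it, as the rule for naming genes required.

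**Figure D1:**
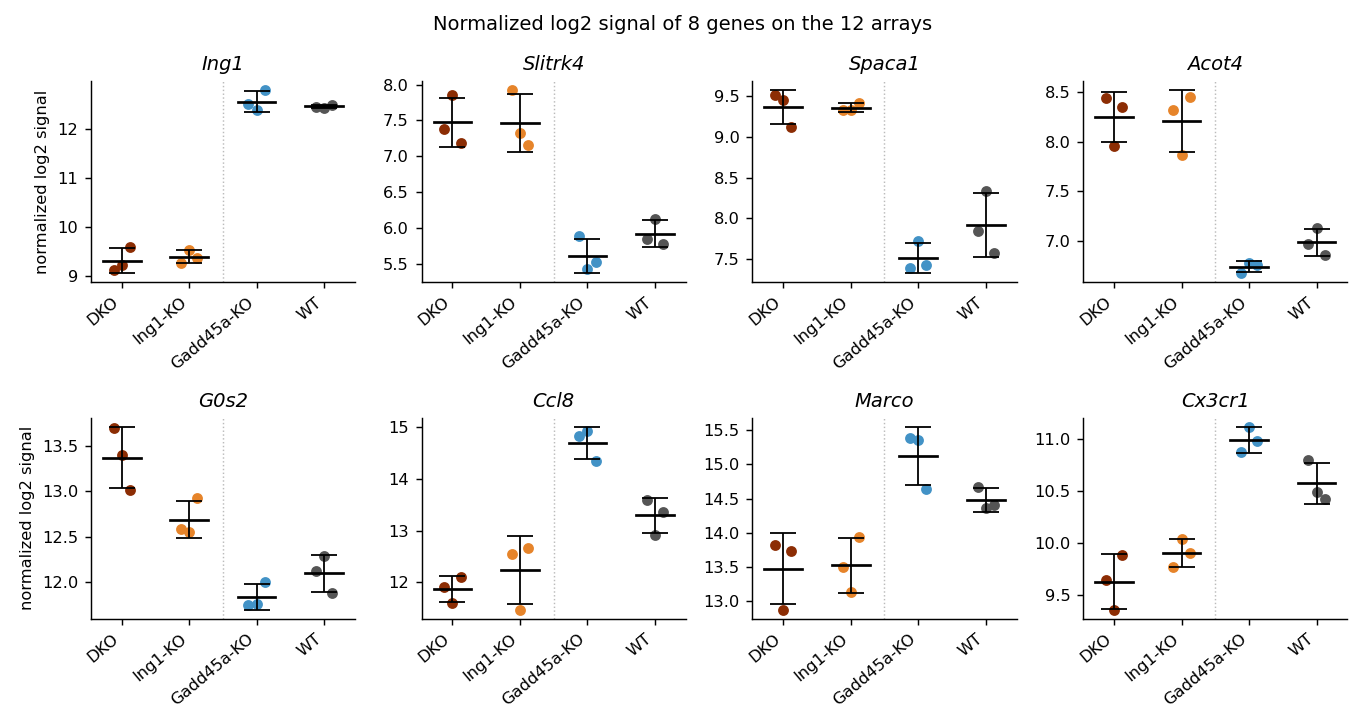
Normalized log2 signal (vertical axis, scale set per gene) of 8 genes in the 4 genotypes, 3 arrays each: points are arrays, long bars the means and short caps the SD. The dotted line separates DKO and Ing1-KO from Gadd45a-KO and WT: Ing1, Ccl8, Marco and Cx3cr1 lie lower and Slitrk4, Spaca1, Acot4 and G0s2 higher on all 6 arrays lacking Ing1, and G0s2 averaged 13.37 in DKO and 12.69 in Ing1-KO.

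Acsm3, a medium-chain acyl-CoA synthetase, rose by 1.28 ± 0.19. Its 6 values without Ing1 ran from 11.16, on Ing1-KO replicate 1, to 12.29, against 10.19 to 10.96 with Ing1. Crat, the carnitine acetyltransferase of mitochondria, rose by 1.05 ± 0.26, and G0s2, which restrains the lipase ATGL, by 1.06 ± 0.18. G0s2 ran from 12.56 to 13.70 without Ing1, against 11.75 to 12.29 with it. Ppp1r3c, which targets protein phosphatase 1 to glycogen, rose by 1.11 ± 0.18 and Agt, the angiotensin precursor made by adipocytes, by 1.11 ± 0.32. The Agt value on DKO replicate 1, 9.35, lay well above the other 5 without Ing1, which ran from 7.24 to 8.08. The remaining named rises were Rhbg, an ammonium transporter (1.39 ± 0.26), Cdh19, a cadherin of Schwann cells (1.39 ± 0.16), the transcription factor Sox6 (1.14 ± 0.22), the cornified envelope gene Lce1k (1.11 ± 0.26), the glucocorticoid-induced G protein gene Rasd1 (1.08 ± 0.17), Mfsd4b1 of the major facilitator family (1.07 ± 0.19) and the bicarbonate cotransporter Slc4a4 (1.03 ± 0.17). Cdh19 and Lce1k were above background on 4 of the 6 arrays carrying Ing1, so the sizes of their rises rest in part on signals below background. Of the 15 rises, 13 were past the threshold in each of the 12 fits that left out 1 array. Agt and Crat were not.

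The promoters of 3 of the largest rises are shown because each holds a motif searched for, and so stands for the 5 of 10 promoters among the named rises that do. RefSeq promoters of the GRCm38.p6 assembly, 250 bases before to 50 after the start that the promoter table gives each gene, were at hand for 10 of the 15 rises and 10 of the 15 falls. The C/EBP motif searched was TTGCNNAA and the E-box was CACGTG, on both strands. The C/EBP motif stood in 3 of the 10 promoters of rises (Spaca1, Acsm3 and Mfsd4b1) and in 0 of the 10 of falls, against 10.8% of all 27025 promoters in the table. The E-box stood in 2 of the 10 (Acot4 and Ppp1r3c) and in 0 of 10, against 7.24% of all promoters. Among the 12646 promoters of genes tested the shares were 9.18% for the C/EBP motif and 9.26% for the E-box. Capitals mark the motif, which reads on the strand shown or on the opposite one. The Spaca1 promoter lies at chr4:34050016-34050315 on the minus strand, the Acot4 promoter at chr12:84038129-84038428 on the plus strand and the Acsm3 promoter at chr7:119760673-119760972 on the plus strand. The start used for Acot4 lies 1125 bases inside the gene's full span in the same assembly, against 2 bases for Spaca1 and 40 for Acsm3.
Spaca1: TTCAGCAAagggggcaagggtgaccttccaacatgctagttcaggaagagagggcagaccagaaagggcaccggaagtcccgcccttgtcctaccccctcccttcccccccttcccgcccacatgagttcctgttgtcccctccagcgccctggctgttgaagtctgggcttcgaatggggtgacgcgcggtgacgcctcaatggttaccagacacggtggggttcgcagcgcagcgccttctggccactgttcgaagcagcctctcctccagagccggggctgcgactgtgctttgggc
Acot4: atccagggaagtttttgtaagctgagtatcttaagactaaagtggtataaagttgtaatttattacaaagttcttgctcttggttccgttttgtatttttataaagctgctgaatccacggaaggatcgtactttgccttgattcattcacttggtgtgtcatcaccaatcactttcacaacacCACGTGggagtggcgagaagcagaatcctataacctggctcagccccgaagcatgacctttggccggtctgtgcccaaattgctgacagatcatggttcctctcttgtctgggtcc
Acsm3: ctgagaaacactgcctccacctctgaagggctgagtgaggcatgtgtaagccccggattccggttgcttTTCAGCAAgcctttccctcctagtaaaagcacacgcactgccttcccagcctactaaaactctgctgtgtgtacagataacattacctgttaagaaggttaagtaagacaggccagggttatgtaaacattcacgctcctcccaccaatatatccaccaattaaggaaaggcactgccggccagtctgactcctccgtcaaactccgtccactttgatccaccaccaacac

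After Ing1 the largest named falls were those of Zp1 and Ccl8. Ccl8, a chemokine that draws monocytes, read 11.91, 11.60 and 12.11 in DKO and 12.55, 11.47 and 12.67 in Ing1-KO, against 14.83, 14.93 and 14.35 in Gadd45a-KO and 13.60, 12.93 and 13.36 in WT. It fell by 1.95 ± 0.32, to a ratio of 0.259 (adjusted p = 0.00812). The highest array without Ing1 was below the lowest array with it, as the rule for naming genes required. Marco, a scavenger receptor of macrophages, ran from 12.88 to 13.94 with a median of 13.62 without Ing1, against 14.36 to 15.38 with a median of 14.66. It fell by 1.30 ± 0.21. Itgad, an integrin chain of leukocytes, fell by 1.51 ± 0.34, but was above background on 1 of 6 arrays lacking Ing1 and 5 of 6 carrying it. Zp1, of the egg coat, fell by 2.07 ± 0.30 between means near the background, and was above it on 2 of 6 arrays lacking Ing1 and 6 of 6 carrying it. Oosp1, secreted by oocytes, the neuropeptide gene Qrfp, Iqcf4, Wdr95 and Dmbt1, a mucosal scavenger glycoprotein, likewise fell (-1.40 to -1.76). Wdr95 was above background on 5 of the 6 arrays lacking Ing1 and the other 4 genes on 1 or 2 of them, against 5 or 6 of those carrying it. The sizes of these 7 dim falls therefore rest on signals of which some lay below background. Wdr95 aside, the 7 met the filter of 3 arrays above background through the arrays carrying Ing1. The other Oosp1 probe, at -0.77 ± 0.36, did not pass (adjusted p = 0.163). The falls above background on all 12 arrays, besides Ing1, Ccl8 and Marco, were the potassium channel Kcnj16 (-1.36 ± 0.21), the cadherin Cdh22 (-1.35 ± 0.24), the histone gene H2bu2 (-1.29 ± 0.29), the inter-alpha-trypsin inhibitor chain Itih3 (-1.28 ± 0.24) and Csprs (-1.27 ± 0.25). H2bu2 and Csprs have near-identical copies that a probe may not separate, and the 3 Csprs probes ran from -0.36 to -1.27. Of the 15 falls, all chosen as past the threshold with every array, 14 passed in each fit that left out 1 array, Qrfp being the exception. The 14 include the other dim falls, to which the limits above apply.

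**Figure D2:**
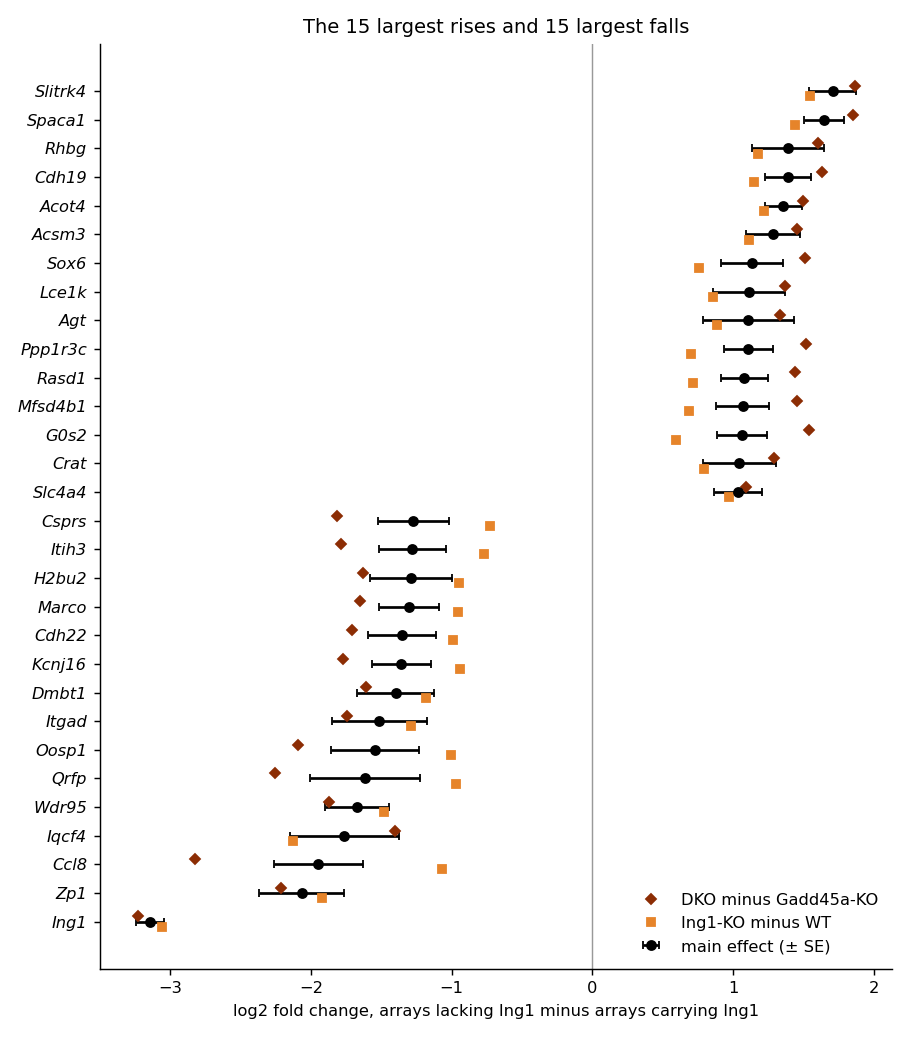
Log2 fold change (horizontal axis) of the 15 largest rises and 15 largest falls: black points are the main effect with its SE, diamonds DKO minus Gadd45a-KO and squares Ing1-KO minus WT. All 30 changed in the same direction in both differences, which their selection fixes: their arrays lacking and carrying Ing1 do not overlap. The diamond lies farther from 0 than the square for each of the 15 rises and for 14 of the 15 falls, Iqcf4 excepted. Over all genes the median size was 0.32 in DKO minus Gadd45a-KO and 0.19 in Ing1-KO minus WT.

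Genes that oxidize fatty acids were higher without Ing1. Of 24 genes of mitochondrial fatty acid oxidation, 16 rose and 0 fell, a share of 66.7% beside the 6.01% of all genes that rose. Their median was 0.65, against -0.04 for all genes. Acadl, the long-chain acyl-CoA dehydrogenase, ran from 13.38 to 14.04 with a median of 13.66 without Ing1, against 12.63 to 13.20 with a median of 12.82, and rose by 0.84 ± 0.12 (adjusted p = 0.00634). The 2 sets did not overlap. Acad11 rose by 0.84 ± 0.12, Slc25a20, which carries acylcarnitines into mitochondria, by 0.92 ± 0.18, and Cpt2, which releases them there, by 0.61 ± 0.14. Cpt1a, the liver form of the entry enzyme, did not pass, at -0.28. Leaving out 1 array gave 10 to 22 rises, and 9 held in all 12 such fits. The mean of the list ran from 0.00 to 0.63 on the arrays lacking Ing1 and from -0.75 to 0.14 on those carrying it, and the overlap was between Ing1-KO replicate 1, at 0.00, and WT replicate 2, at 0.14. In peroxisomes, where very long and branched chains are oxidized, 12 of 25 genes rose and 0 fell (median 0.44), among them Ehhadh (0.78 ± 0.17), Ech1 (0.74 ± 0.17) and Pex13 (0.55 ± 0.10). Leaving out 1 array gave 5 to 20 peroxisomal rises, of which 5 held in all 12 fits. List counts, like the total, moved with single arrays. Of 24 lists with 3 or more calls in a direction, 22 had a count over 1.5 times lower without DKO replicate 1, 22 without Gadd45a-KO replicate 3, 18 without Gadd45a-KO replicate 2, 14 without Gadd45a-KO replicate 1, 13 without WT replicate 3, 12 without DKO replicate 2, 9 without Ing1-KO replicate 1 and 1 to 6 without DKO replicate 3, Ing1-KO replicate 2 or 3 or WT replicate 1. Without WT replicate 2, 18 of the 24 had a count over 1.5 times higher.

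The breakdown of branched-chain amino acids, a pathway active in adipocytes, had 16 rises among 19 genes and 0 falls, with a median of 0.59. The rises numbered 9 to 18 with 1 array left out, and 9 held throughout. Aldh6a1, of the valine branch, ran from 14.78 to 15.63 with a median of 15.13 without Ing1, against 14.20 to 14.53 with a median of 14.33, and rose by 0.83 ± 0.13. Acadsb rose by 0.90 ± 0.15, Pcca by 0.85 ± 0.16 and Bckdhb, of the committed dehydrogenase step, by 0.59 ± 0.13. This list had non-overlapping means, 0.08 to 0.69 without Ing1 against -0.54 to 0.04 with it. In the citric acid cycle 9 of 20 rose and 0 fell (median 0.49), with Suclg2 at 0.60 ± 0.11 and Idh3a at 0.78 ± 0.18. Of 28 respiratory chain subunits 9 rose and 0 fell (median 0.41), with Cyc1 at 0.64 ± 0.16. Of 26 proteins of the mitochondrial ribosome 8 rose and 0 fell (median 0.28). Under the other scalings the rises numbered 16 to 19 in the citric acid cycle, 15 to 22 in the respiratory chain and 5 to 14 in the mitochondrial ribosome. No respiratory chain call held in all 12 fits that left out 1 array, where the count ran from 0 to 27.

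Triglyceride synthesis had 9 rises among 18 genes (median 0.48) and lipolysis with lipid droplet proteins 8 among 22 (median 0.50), with 0 falls in either. Lpin1, which makes diacylglycerol, ran from 12.02 to 12.56 with a median of 12.31 without Ing1, against 10.62 to 11.58 with a median of 11.39, and rose by 1.00 ± 0.16. Dgat1, the last step of triglyceride synthesis, rose by 0.77 ± 0.15, and Lipe, the hormone-sensitive lipase, by 0.76 ± 0.17. Plin5 (0.95 ± 0.22) and Plin1 (0.57 ± 0.14), coats of the lipid droplet, rose as well. Of 21 genes for the synthesis of new fatty acids 2 rose and 0 fell, with a median of 0.29. The 2 were Fads1, a desaturase (0.50 ± 0.14), and Pnpla3 (0.70 ± 0.20). Their share, 9.52%, stood beside 6.01% of all genes that rose and 17.4% of named genes that passed in either direction. The median was 0.58 in DKO minus Gadd45a-KO and -0.04 in Ing1-KO minus WT, a difference not tested for the list. Fasn, the fatty acid synthase, was at 0.29 and Acly at 0.13, neither past the threshold. Leaving out 1 array gave 0 to 6 lipogenesis rises, with a median of 0.11 without Gadd45a-KO replicate 3 and 0.45 without WT replicate 2, and the medians within the 3 slides were 0.12, -0.08 and 0.91.

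Of the 24 white adipocyte markers 12 rose and 0 fell (median 0.49). With 1 array left out 4 to 21 rose, of which 4 held in all 12 fits, and the other scalings gave 14 to 18. Lep, the satiety hormone, ran from 11.49 to 12.55 with a median of 11.84 without Ing1, against 10.48 to 11.49 with a median of 11.13. It rose by 0.89 ± 0.21. Adipoq, at 0.47, and Fabp4, at -0.03, did not pass. Of 24 brown and beige markers 6 rose and 1 fell, Tmem26 (-0.96 ± 0.22), with a median of 0.74. Ppargc1a, a coactivator of mitochondrial genes, rose by 0.84 ± 0.20 and Ppara, the fatty acid receptor, by 0.98 ± 0.20. Ucp1, the uncoupling protein of brown fat, read 12.71 to 15.68 without Ing1 and 10.18 to 13.93 with it, a change of 1.58 ± 0.60 that did not pass (adjusted p = 0.091). Its levels overlapped widely between the 2 sides.

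Of 7 C/EBP factors, some of which drive adipocyte genes, 3 rose and 0 fell. Cebpg, a dimer partner of the others, ran from 10.32 to 10.64 with a median of 10.47 without Ing1, against 9.83 to 10.08 with a median of 9.95. It rose by 0.53 ± 0.08 (adjusted p = 0.00706). Cebpa, the adipocyte factor, rose by 0.54 ± 0.17, and Ddit3 by 0.32 ± 0.09. Cebpb, at 0.40, did not pass. Of 18 PPAR and RXR regulators 5 rose and 0 fell, among them Ppara and Klf15 (0.77 ± 0.14), and Pparg itself, at 0.55, did not pass. Of 23 insulin signalling genes 6 rose and 0 fell (median 0.33). The insulin receptor gene Insr rose by 0.60 ± 0.14, Irs1 by 0.64 ± 0.15, Akt2 by 0.42 ± 0.12 and Pde3b, through which insulin restrains lipolysis, by 0.64 ± 0.12. The means of that list did not overlap, 0.04 to 0.24 without Ing1 against -0.21 to -0.05 with it. Of 19 glycogen and hexokinase genes 5 rose and 0 fell, including Pygb, a glycogen phosphorylase (0.83 ± 0.13), and Hk2 (0.74 ± 0.14). Of 19 clock genes 2 rose, Rora (0.64 ± 0.14) and Nr1d2 (0.38 ± 0.11). That share was below the 17.4% of named genes that passed in either direction. Leaving out 1 array gave 1 to 4 clock rises, and 1 call held in all 12 such fits. Under the other scalings 5 to 8 PPAR and RXR regulators, 5 to 9 glycogen and hexokinase genes and 2 to 5 clock genes rose. The C/EBP share was 42.9%, the PPAR and RXR share 27.8%, the insulin signalling share 26.1% and the glycogen and hexokinase share 26.3%. These stood beside 6.01% of all genes that rose. In the same order, leaving out 1 array gave 1 to 4, 2 to 10, 3 to 10 and 3 to 11 rises. Of the calls, 1, 2, 3 and 3 held in all 12 fits.

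**Figure D3:**
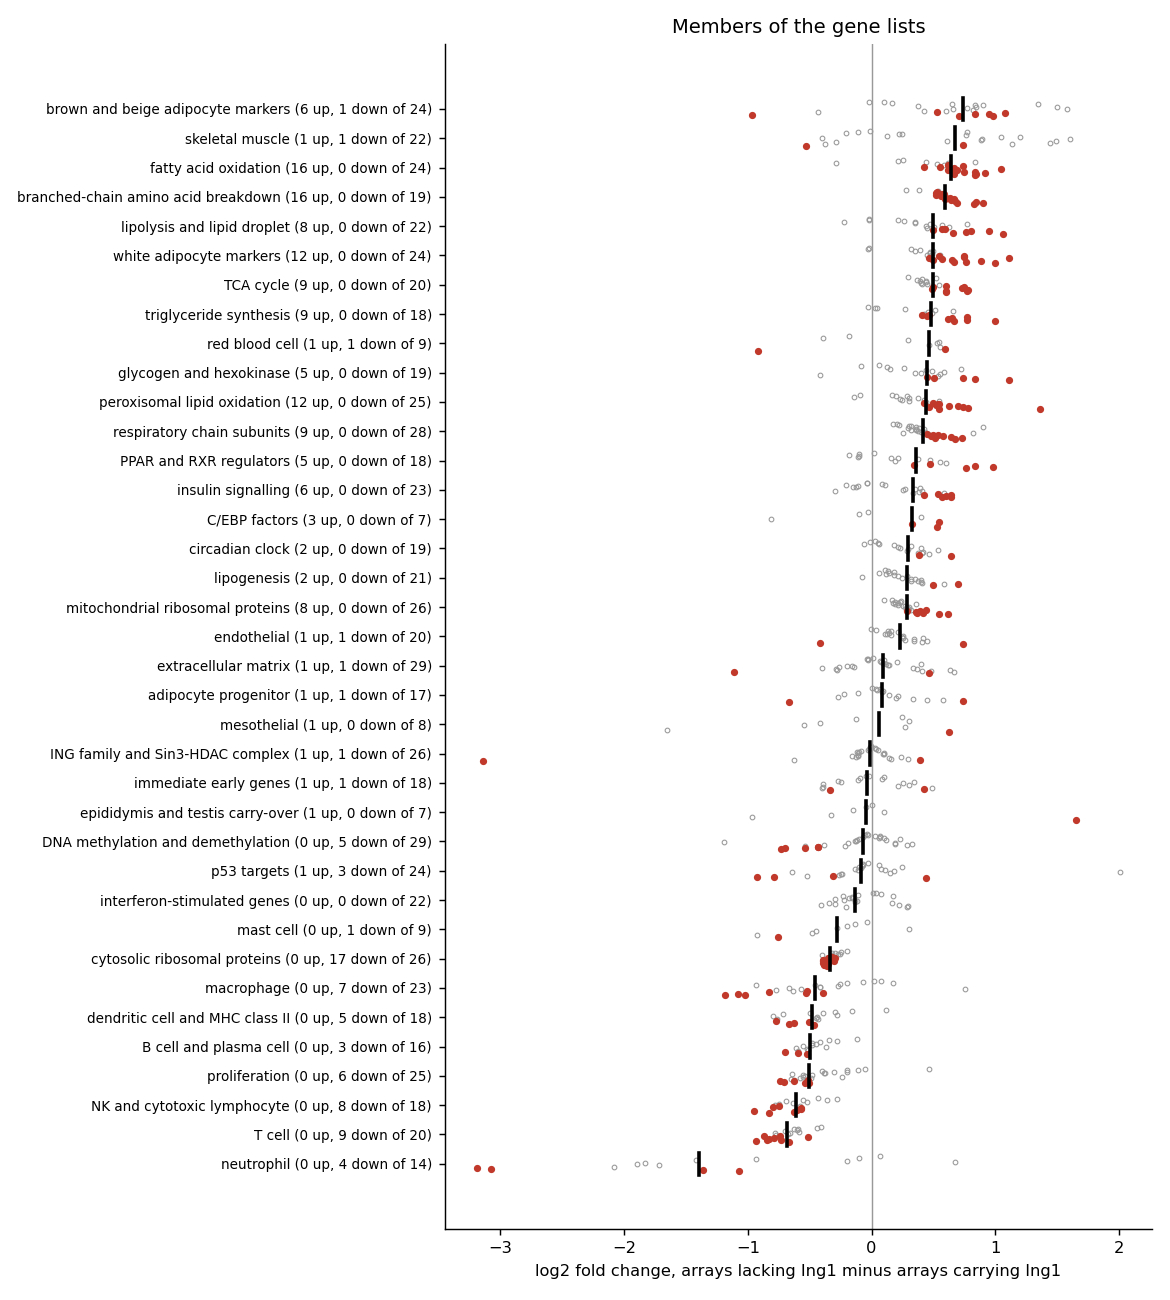
Log2 fold change of the main effect (horizontal axis) for each tested member of 37 gene lists, ordered by median: filled points passed an adjusted p of 0.05, open ones did not, and the bar is the median. Fatty acid oxidation, with a median of 0.65, and branched-chain amino acid breakdown, with 0.59, lie near the top, and T cell and neutrophil markers, with -0.69 and -1.39, at the foot.

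Immune markers moved the opposite way. Of 23 macrophage markers 7 fell and 0 rose, a share of 30.4% beside the 7.84% of all genes that fell, with a median of -0.46. The list was chosen with earlier results of these data known and includes Lilra6 and Cd300c2 (-1.08), both among the 7. Its share is therefore not independent of these data. Lilra6 fell by 1.18 ± 0.14 (adjusted p = 0.00284). Cx3cr1, a chemokine receptor of monocytes and macrophages, ran from 9.35 to 10.04 with a median of 9.83 without Ing1, against 10.43 to 11.12 with a median of 10.84. It fell by 1.02 ± 0.14. Csf1r, the receptor for the macrophage growth factor, fell by 0.53 ± 0.12 and C1qc by 0.53 ± 0.13. Adgre1 at -0.42, Mrc1 at -0.07 and Cd163 at 0.76 did not pass. Of 18 dendritic cell and MHC class II genes 5 fell and 0 rose (median -0.48), among them H2-Ab1 (-0.47 ± 0.10), and 3 or 4 under the other scalings.

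Of 20 T cell markers 9 fell and 0 rose (median -0.69). Leaving out 1 array gave 1 to 17 falls, of which 1 held in all 12 fits, and the other scalings gave 5 to 8. Cd3e, a chain of the T cell receptor complex, ran from 11.70 to 13.12 with a median of 12.55 without Ing1, against 13.04 to 13.56 with a median of 13.22. It fell by 0.73 ± 0.18, and the sides overlapped. Cd8a fell by 0.93 ± 0.23 and Cd4 by 0.51 ± 0.16. Of 18 NK and cytotoxic genes 8 fell and 0 rose (median -0.61), including the factor Tbx21 (-0.83 ± 0.17) and the granule genes Gzmb (-0.95 ± 0.24) and Prf1 (-0.60 ± 0.16). The NK falls numbered 1 to 16 with 1 array left out and 4 to 7 under the other scalings. Of 16 B cell genes 3 fell (median -0.50): Fcrla, Bank1 and Tnfrsf13b. None of the 3 held in all 12 fits, the count ran from 0 to 6, and the median was -0.29 without DKO replicate 2. DKO replicate 2 was lowest of the 12 on these 3 lists, at -1.33 for T cells. Of 14 neutrophil genes 4 fell (median -1.39). The neutrophil median was -2.42 in DKO minus Gadd45a-KO and -0.19 in Ing1-KO minus WT, a difference not tested for the list. Cxcr2, a chemokine receptor of neutrophils, ran from 6.88 to 7.65 without Ing1 against 7.96 to 8.91 with it, and fell by 1.07 ± 0.19. Lcn2 fell by 1.36 ± 0.37. The granule genes Ltf and Ngp also fell, but Ltf was above background on 3 of 6 arrays lacking Ing1 and 6 of 6 carrying it, and Ngp on 2 of 6 and 5 of 6. The neutrophil list was high on Gadd45a-KO replicates 1 and 2, at 2.54 and 1.59, and -0.88 to 0.53 on the other arrays carrying Ing1. In the mast cell list 1 of 9 fell, Mcpt4, a share of 11.1% beside 17.4% of named genes that passed in either direction. Of 25 proliferation genes 6 fell and 0 rose (median -0.51), among them Birc5 (-0.74 ± 0.21) and Aurka (-0.51 ± 0.14), and none of the 6 passed in all 12 fits that left out 1 array. The proliferation median was -0.85 in DKO minus Gadd45a-KO and -0.11 in Ing1-KO minus WT. Of 22 interferon-stimulated genes 0 passed by limma, and 1 had an unadjusted p under 0.05. Of 26 cytosolic ribosomal proteins 17 fell in the 75th percentile scaling (median -0.34), but 0 to 4 in the other scalings, where the median was -0.26 to -0.16.

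**Figure D4:**
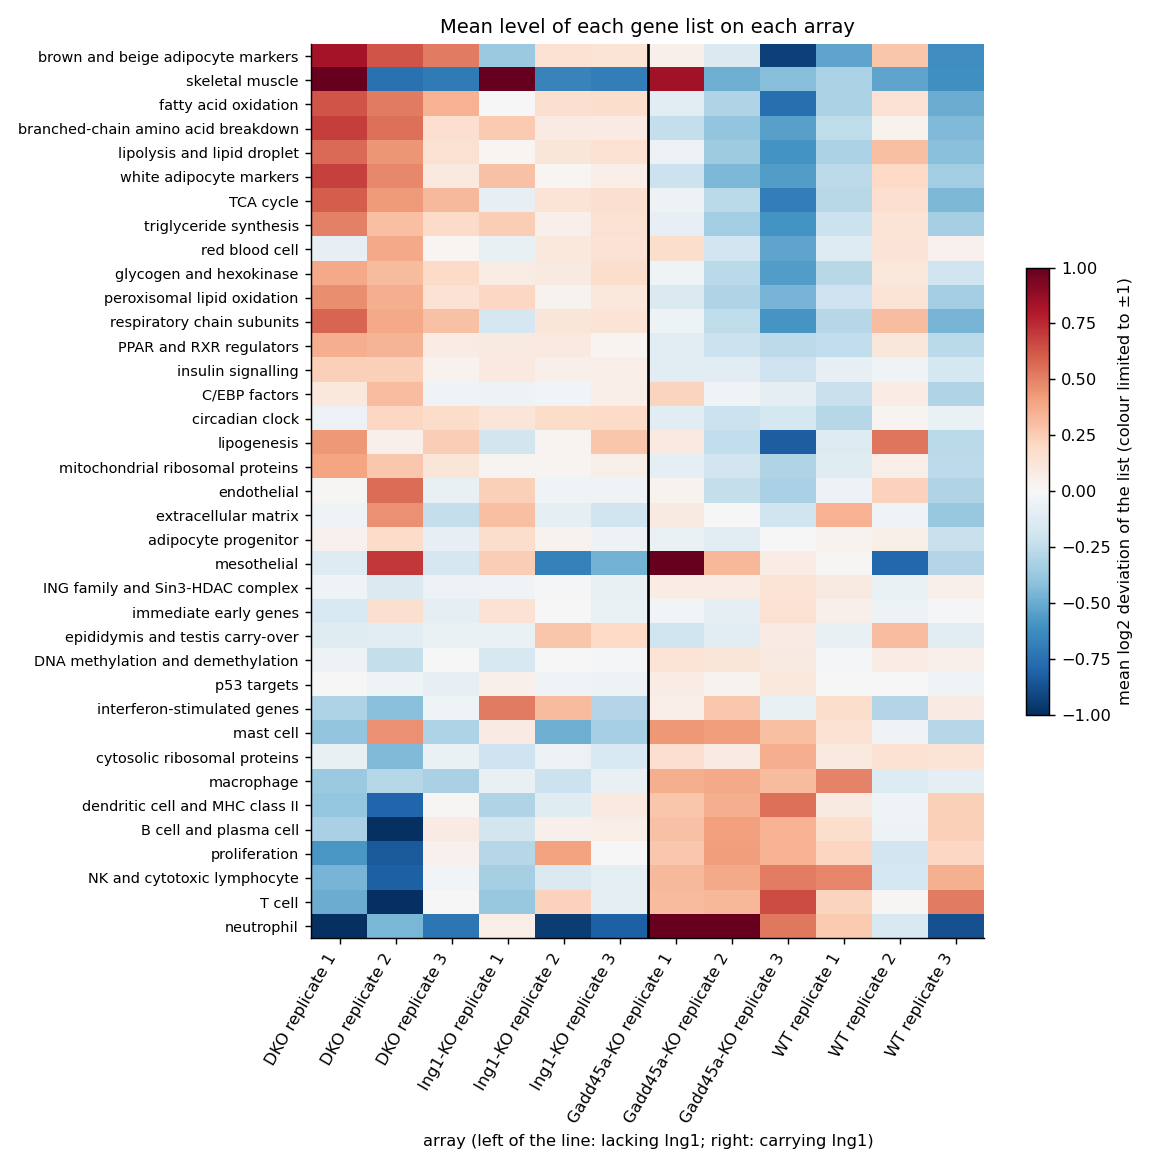
Mean of each list on each array, as the log2 deviation from the mean over the 12 arrays (colour, limited to ±1), with arrays lacking Ing1 left of the line. Fatty acid oxidation is highest on DKO replicate 1, at 0.63, and lowest on Gadd45a-KO replicate 3, at -0.75, and skeletal muscle stands out on the first replicates of DKO, Ing1-KO and Gadd45a-KO.

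Markers of other cell types and of the matrix had 1 or 2 calls a list, shares of 6.90% to 22.2% beside the 13.8% of all genes and 17.4% of named genes. Endothelial genes had 1 rise, Tek, and 1 fall, Plvap, among 20, adipocyte progenitor genes 1 rise, Fmo2, and 1 fall, Thy1, among 17, and mesothelial genes 1 rise, Lrrn4, among 8. Muscle genes had 1 rise, Myl1, and 1 fall, Tnnt1, among 22, with a median of 0.67 that became -0.21 without the 3 arrays high in muscle. Blood cell genes had 1 rise, Hba-a1, and 1 fall, Gata1, among 9. Extracellular matrix genes had 1 rise, Timp3, and 1 fall, Timp1, among 29. Without those 3 arrays the median was 0.67 for fatty acid oxidation, 0.52 for branched-chain amino acid breakdown, 0.46 for white adipocyte markers, -0.39 for macrophages and -0.63 for T cells, with 0 members of these 5 lists past the threshold. The part of muscle transcripts in the other results was not tested beyond that.

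Among 26 ING family and Sin3 deacetylase genes, Ing1 fell and 1 other passed, the Sin3 subunit Suds3 (0.39 ± 0.10). That share, 7.69%, was below the 17.4% of named genes that passed. Ing2 was at 0.29 and Sin3a at 0.10, neither past the threshold. Among 29 DNA methylation and demethylation genes 5 fell and 0 rose, a share of 17.2% beside 7.84% of all genes. In either direction 17.4% of named genes passed. Tet1, which oxidizes methylated cytosine, ran from 7.14 to 7.54 with a median of 7.33 without Ing1, against 7.83 to 8.22 with a median of 8.08. It fell by 0.73 ± 0.09 (adjusted p = 0.00383), by nearly the same size in the absence of Gadd45a (-0.73) as in its presence (-0.74). Gadd45b, a stress-induced relative of Gadd45a, fell by 0.70 ± 0.15, Apobec1 by 0.54 ± 0.11, and the methyltransferases Dnmt3b and Dnmt1 by 0.43 ± 0.10 and 0.43 ± 0.13. Among 24 p53 targets 1 rose, Ccng1 (0.44 ± 0.09), and 3 fell, Pmaip1 (-0.93 ± 0.20), Gdf15 (-0.79 ± 0.20) and Bax (-0.32 ± 0.09). That share of 16.7% stood beside 13.8% of all genes and 17.4% of named genes. Cdkn1a, at -0.07, did not pass. Of 18 immediate early genes Dusp1 rose and Nr4a1 fell, a share of 11.1% beside 17.4% of named genes.

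Genes near Ing1 on chromosome 8 are neighbours of the targeted locus, by their places in the GRCm38.p6 assembly. Of 49 genes within 5 Mb, Ing1 left aside, 6 passed, or 12.2%, against 22.1% of 113 genes at 5 to 20 Mb and 18.3% of 656 farther on the chromosome. The 6 were Atp11a, a lipid flippase (-0.51 ± 0.07), the exchange factor Mcf2l (0.60 ± 0.11), the clotting factor F10 (-0.70 ± 0.19), the ubiquitin ligase scaffold Cul4a (0.45 ± 0.10), the DNA ligase Lig4 (0.31 ± 0.09) and Efnb2 (0.41 ± 0.12).

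Whether the effect depended on Gadd45a was asked by splitting it into DKO minus Gadd45a-KO and Ing1-KO minus WT, which share no array but share slides. The median size of the 4356 was 0.70 in DKO minus Gadd45a-KO and 0.37 in Ing1-KO minus WT, and 3932 were larger in the first. Over all genes the median size was 0.32 and 0.19, so it was larger in the first there too. The share of all genes larger in the first was not counted. All 4356 had the same sign in both, which selection on their mean in part fixes. Across all genes, which are not independent, the 2 differences correlated with a Pearson r of 0.50 and a Spearman rho of 0.55. The interaction itself was past the threshold for 0 genes by limma, with a smallest adjusted p of 0.633, while 1866 (5.93%) had an unadjusted p under 0.05. Of the 4356, 528 (12.1%) did. The 1866 became 1211 without WT replicate 2 and DKO replicate 2, and 1031 to 4370 with 1 array left out. The 5 genes with the smallest interaction p were Ccl12, a chemokine (-1.42 ± 0.21), Pdgfrl (1.94 ± 0.36), Epb41l3 (-0.77 ± 0.14), Csmd1 (-1.59 ± 0.31) and Tspan10 (-1.61 ± 0.33). Ccl12 read 8.85, 8.83 and 9.28 in DKO and 9.30, 9.51 and 9.71 in Ing1-KO, against 10.87, 10.66 and 10.64 in Gadd45a-KO and 9.80, 9.78 and 9.90 in WT. Its fall was -1.74 without Gadd45a and -0.32 with it. The Gadd45a term of the same additive fit was past the threshold for 0 genes, with 283 (0.9%) at an unadjusted p under 0.05 and a smallest adjusted p of 0.0607, for the Gadd45a probe.

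**Figure D5:**
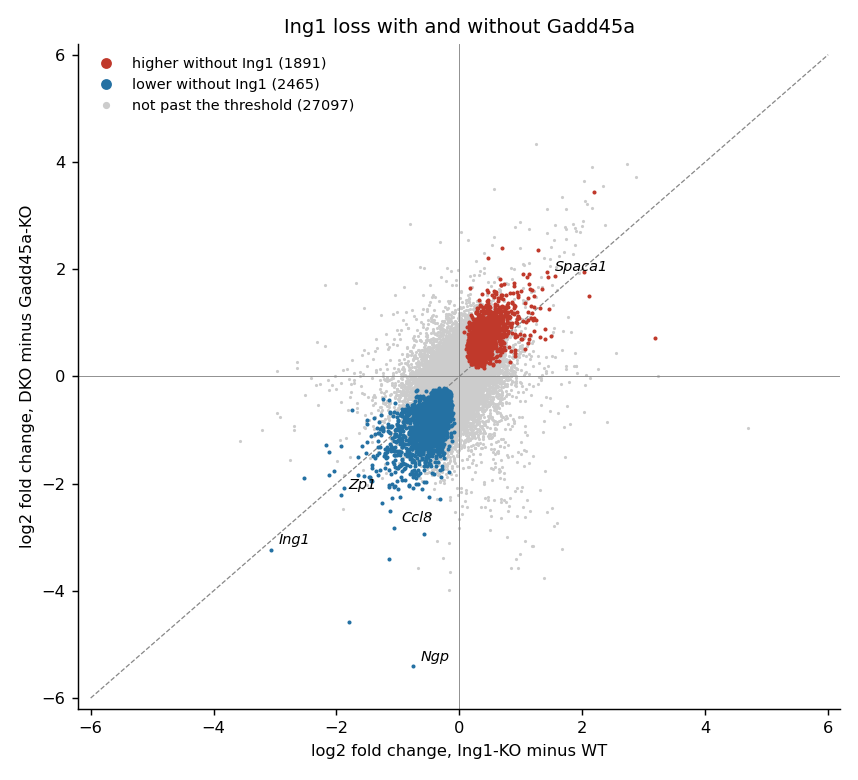
Each point is a gene or unnamed probe: the log2 fold change of Ing1-KO minus WT (horizontal axis) against that of DKO minus Gadd45a-KO (vertical axis), with the line of equality dashed. Red points (1891) are higher and blue points (2465) lower without Ing1 in the main effect, and 3932 of these 4356 lie farther from 0 on the vertical axis. Over all genes the median size was also larger on that axis, 0.32 against 0.19.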

How the data were processed

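RNA labelled with Cy3 was hybridized to 12 Agilent 1-colour arrays. Per the file headers, the deposited scanner files hold intensity values from Feature Extraction 10.7.3.1, including a processed signal already corrected for background within the array and not scaled between arrays. A deposited table holds the authors' processed log2 values for 38927 probes, and the submitters' processing notes name limma 3.26.9. The filter behind it is not given in the sources used here. Each of its columns correlated at 0.843 or more with its own array's scanner values and at 0.422 at most with those of another.

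The scanner files were used. Control and flagged spots were left out, log2 processed signals of a probe were averaged, and arrays were shifted to a common 75th percentile. Of 55681 probes, 94 had no value on some array. RefSeq accessions stood beside 29150, of which 27509 matched a table of gene names, giving 20887 genes. A probe was kept if 3 or more arrays showed it well above background, and each named gene was represented by its brightest probe; 31453 remained. No spot was saturated. The number of arrays limits the precision.

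An additive model of Ing1 and Gadd45a status was fitted with limma 3.58.1 in R 4.3.3, with intensity trend and robust moderation and 9 residual degrees of freedom. Tests are two-sided, with Benjamini-Hochberg adjustment across the 31453 and a threshold of 0.05. A model of 4 genotype means gave the interaction. Named are Ing1 and Gadd45a, the 15 largest rises and falls past the threshold whose 6 and 6 arrays do not overlap (predicted genes and genes below background on all 6 arrays of a side left out), list members past the threshold or with the smallest p, the 5 smallest interaction p and called genes within 5 Mb of Ing1. Cstad and Nampt were named after their values were seen. The members, lists and rules were chosen with earlier results of these data known. An "at least" fold sets the bright side's mean against the lowest signal called above background. Other settings tried were the scaling (quantile, median, normexp with an offset of 50 on the median spot signal, the authors' table), the filter, every probe, plain moderation, slide or array row as a block, no covariate, 4 means and each array left out. A further 3 settings were chosen after seeing the data: without 3 arrays high in muscle transcripts, without 2 arrays, and slide with row. The fit was tested on simulated data.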

Additional observations from a re-analysis of the deposited data

Results flagged for a closer look

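In sets of 6 arrays, lacking or carrying Ing1, 158 sets of values were examined for an end value set apart from the other 5 by more than Dixon's 95% critical value. Of these sets, 18 had one, and chance gives about 1 in 20.

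Gadd45a-KO replicate 3 was the one apart in 8 of them among the arrays carrying Ing1. It was low for Sox6 (5.1552), Mfsd4b1 (5.2471), Crat (7.0893) and Cul4a (10.73). It was high for Lig4 (9.2059), Qrfp (6.9223), Ing1 (12.783) and the cytosolic ribosomal proteins (0.36129). WT replicate 2 was low for proliferation (-0.19308) and for NK and cytotoxic genes (-0.17515), WT replicate 3 was low for Slc4a4 (7.5191), and Gadd45a-KO replicate 1 was high for skeletal muscle (0.83892).

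Among the arrays lacking Ing1, DKO replicate 2 was high for Efnb2 (10.298) and low for H2bu2 (6.067) and B cell genes (-1.105). DKO replicate 1 was high for F10 (15.752) and low for clock genes (-0.057334), and Ing1-KO replicate 1 was low for Acsm3 (11.157). Gene values are normalized log2 signals and list values are mean log2 deviations.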

How the results depend on the processing

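The count of 4356 in the main effect was 4218 with quantile normalization, 4142 with centring on the median, 3767 with normexp, 3565 in the authors' table, 2911 with no filter, 4560 with every array required above background, 5229 with every probe, 3304 with plain moderation, 5347 with no covariate and 5038 with 4 means. The share of calls that were higher without Ing1 was 43.4%, against 66.0% with centring on the median, where 2733 were higher and 1409 lower, and 51.3%, 51.1% and 50.1% with quantile normalization, normexp and the authors' table. Leaving out 1 array gave 1663 to 7854. Leaving out WT replicate 2 and DKO replicate 2 together gave 5773, and leaving out the 3 arrays high in muscle transcripts gave 5; that fit has fewer arrays and fewer degrees of freedom. Of the 15 largest rises and falls, the interaction genes and the genes near Ing1, 39 were past the threshold and recomputed under the other settings. With every array required above background, only 33 of the 42 genes run, past the threshold or not, were left. None of the 39 changed sign where recomputed, which their selection past the threshold in part fixes. Of the 39, 37 lost their call without the 3 arrays high in muscle transcripts. The skeletal muscle median, 0.67, became -0.21 there, and the medians of 6 lists between -0.07 and 0.09 changed sign under some setting. The Gadd45a term had 4 calls with no filter, and 2 without WT replicate 2 and without that array and DKO replicate 2, against 0; leaving out 1 array gave 0 to 2. The interaction had 0 calls under every setting run. Replicate numbers equal slides. Same-numbered pairs correlated at -0.276 to 0.424 (median 0.122, n = 18). Pairs of different slide and genotype correlated at -0.359 to 0.311 (median -0.0985, n = 36). The ranges overlapped, but the median was higher for same-numbered pairs. The main fit had no slide block. With the replicate block (slide) 5180 passed, with array row 3247, and with both 3840. Within slides, the fatty acid oxidation median was 0.54, 0.45 and 0.84, and the T cell median -0.71, -0.74 and -0.66. Dim genes, such as Zp1, are limited by signal over background.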
